A study of Mus musculus with 12 samples.

Results

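Abcb4, also called Mdr2, is the gene inactivated in the Mdr2-KO mouse, and it was followed here in liver tumors of that mouse together with Abcb1a, Abcb1b and Abcb11, its sister genes in the B subfamily of ATP-binding cassette transporters. The 4 genes were taken by name from the array files, where they had 9 of 42235 probes with a position, and they are 4 of 20627 named genes. Abcb1a had 3 probes, and Abcb1b, Abcb4 and Abcb11 had 2 probes each.

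The Abcb4 protein flips phosphatidylcholine into bile at the canalicular membrane of the hepatocyte, and the phospholipid shields the bile duct lining from bile salts. Abcb11, the bile salt export pump, sits in the same membrane and drives bile salt secretion. Abcb1a and Abcb1b are the rodent P-glycoproteins, which pump drugs and other hydrophobic compounds out of cells, and they lie next to Abcb4 on the genome, whereas Abcb11 lies on another chromosome. Mice without Abcb4 secrete bile without phospholipid, develop chronic inflammation around the bile ducts and later liver tumors.

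Array-based comparative genomic hybridization (aCGH) was used to compare the DNA of 12 tumors with DNA from tumor-free liver taken elsewhere in the same animal, on 1 array per tumor, with tumor DNA in red (Cy5) and non-tumor DNA in green (Cy3). Of these, 6 tumors (PHx1M, PHx2F, PHx3M, PHx4M, PHx5M and PHx6F; the last letter gives the sex) came from 9-month-old mice after a 70% partial hepatectomy (PHx) at the age of 3 or 6 months. The other 6 (Spon1M, Spon2M, Spon3F, Spon4F, Spon5F and Spon6F) were spontaneous tumors of untreated mice aged 13 to 14 months. Group and age went together, so that hepatectomy and age cannot be told apart. All mice, and hence both channels of all arrays, carried the Abcb4 knockout on the FVB background, and no wild-type DNA was hybridized. A ratio near 0 at Abcb4 therefore shows equal amounts of the mutant locus in tumor and liver, and gives no check of the knockout itself. Each value below is a log2 ratio of tumor over non-tumor liver unless another scale is named, with 0 for equal DNA amounts. A gene's value is the mean of its probes.

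The arrays lay on 3 slides. PHx1M to PHx4M shared slide 1, PHx5M, PHx6F, Spon5F and Spon6F shared slide 2, and Spon1M to Spon4F shared slide 3, so that only slide 2 held both groups. The spread between neighbouring probes was 0.147 to 0.265 over the arrays, so a mean of 2 probes carries an error that exceeds many of the differences below. Chromosome X signals relative to the autosomes were -1.04 to -0.92 in both channels of the 6 mice labelled male and -0.16 to 0.07 in those of the 6 labelled female, and no array went against its label. All probes of the 4 genes were marked well above background in both channels of all 12 arrays and none was saturated. One Abcb1b probe was marked as an outlier in PHx2F and PHx3M and dropped there, which left 1 probe for Abcb1b in these tumors.

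On the mouse genome build mm8, which the files use, the probes of Abcb1a spanned chr5:8707926-8729030, those of Abcb1b chr5:8833385-8872017 and those of Abcb4 chr5:8904729-8948922. The 3 genes thus stood side by side within 241 kb, 5.42 Mb from the first probe of the chromosome. The Abcb11 probes spanned chr2:69060334-69107453. The probes were 60 bases long. Their place in exons or introns was not assigned here.

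Abcb4 was strongly amplified in 1 tumor, PHx3M. Among the post-PHx tumors PHx3M had a log2 ratio of 1.67, followed by PHx2F with 0.27, PHx1M with 0.24, PHx5M with 0.21, PHx6F with 0.12 and PHx4M with -0.10. Among the spontaneous tumors the highest was Spon1M with 0.25, before Spon6F with 0.17, Spon5F with 0.14, Spon3F with 0.0024, Spon2M with -0.01 and Spon4F with -0.04. The PHx3M value equals 3.17 times the DNA amount of the matched liver, and its 2 probes read 1.77 and 1.56. Apart from PHx3M, the values of the groups overlapped throughout.

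The P-glycoprotein genes moved with Abcb4 in PHx3M. Abcb1a stood at 0.18, 0.46, 1.65, -0.05, -0.08 and -0.04 in PHx1M to PHx6F, and at 0.14, 0.14, -0.07, -0.25, -0.22 and -0.28 in Spon1M to Spon6F. PHx3M was again far above the rest, PHx2F came second, and both groups overlapped. The -0.22 of Abcb1a in Spon5F rested on 1 probe at -0.79, since the other two read 0.10 and 0.02. Abcb1b stood at 0.04, 0.37, 1.56, -0.18, 0.02 and 0.03 in PHx1M to PHx6F, and at 0.34, 0.18, -0.13, -0.14, 0.16 and -0.15 in Spon1M to Spon6F. Its probes disagreed in PHx1M, where they read -0.37 and 0.44, so the value near 0 there is not a shared reading.

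Abcb11, the bile salt export pump, followed another pattern. It stood at 0.17, -0.06, 0.11, -0.04, 0.01 and 0.24 in PHx1M to PHx6F, and at 0.23, -0.18, 0.18, 0.22, 0.50 and 0.13 in Spon1M to Spon6F. Its highest value was in Spon5F, with probes at 0.43 and 0.57, and the value in PHx3M was inconspicuous.

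**Figure D1:**
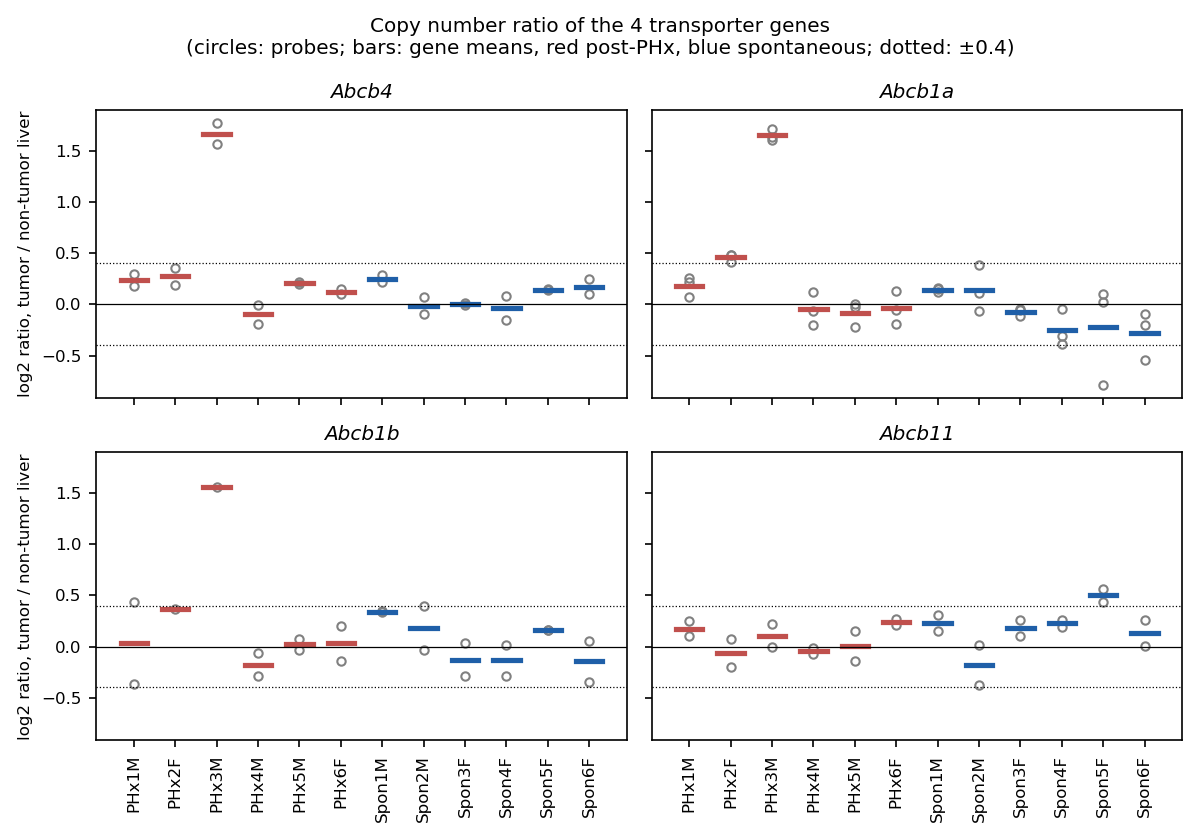
Log2 ratio of tumor over matched non-tumor liver (y axis) of each of the 4 genes in each of the 12 tumors (x axis); circles are single probes, bars gene means, red for post-PHx and blue for spontaneous tumors, and dotted lines mark ±0.4. PHx3M stands at 1.56 to 1.67 for the 3 genes on chromosome 5 and at 0.11 for Abcb11.

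Whether the transporters belonged to an amplified or deleted region was asked of each array with an interval score in the manner of the ADM-2 algorithm (score of at least 6, at least 2 probes, absolute mean log2 ratio of at least 0.4). In PHx3M the 3 genes of the Abcb4 cluster lay in an amplified region that ran from the first probe of chromosome 5 to beyond the cluster, chr5:3285647-9741756, with 85 probes at a mean of 1.65, 3.15 times the DNA amount of the liver. The region ended 793 kb past the last Abcb4 probe, and the next probe lay 2.24 Mb farther on. This end depended on the settings. With equal probe weights or a score threshold of 5 the region ran on to position 13376065 (91 probes, mean of 1.57). With normexp background correction it ended at position 8948922, the end of the last Abcb4 probe. In this tumor 3 of the 4 genes were in an amplified region, against 3.41% of all 20627 genes. None of the 4 genes was in a deleted region of any tumor, and Abcb11 was in no called region. The cluster was thus amplified in 1 of 6 post-PHx and 0 of 6 spontaneous tumors, and the two-sided p of this split was 1 by Fisher's exact test.

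Tumors without a called region at Abcb4 were not all flat at the start of chromosome 5. In PHx2F an amplified region, chr5:3285647-7184333 at a mean of 0.94, ended 1.52 Mb before the first Abcb1a probe. The piece that followed, chr5:7187314-9517499, held the cluster, and its 39 probes averaged 0.38, just under the limit of 0.4. In PHx1M the piece with the cluster had the same bounds as the region of PHx3M, and its mean of 0.399 also fell just short. In PHx6F an amplified region, chr5:3285647-5793960 at a mean of 0.67, ended 2.91 Mb before Abcb1a and left the cluster outside. In Spon1M a piece of 126 probes from the first probe to position 15884923 averaged 0.31. With a limit of 0.25 in place of 0.4, the cluster was counted as amplified in 4 tumors, PHx1M, PHx2F, PHx3M and Spon1M. Without centring, and with outlier spots kept, it was counted in 2 tumors, PHx1M and PHx3M.

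**Figure D2:**
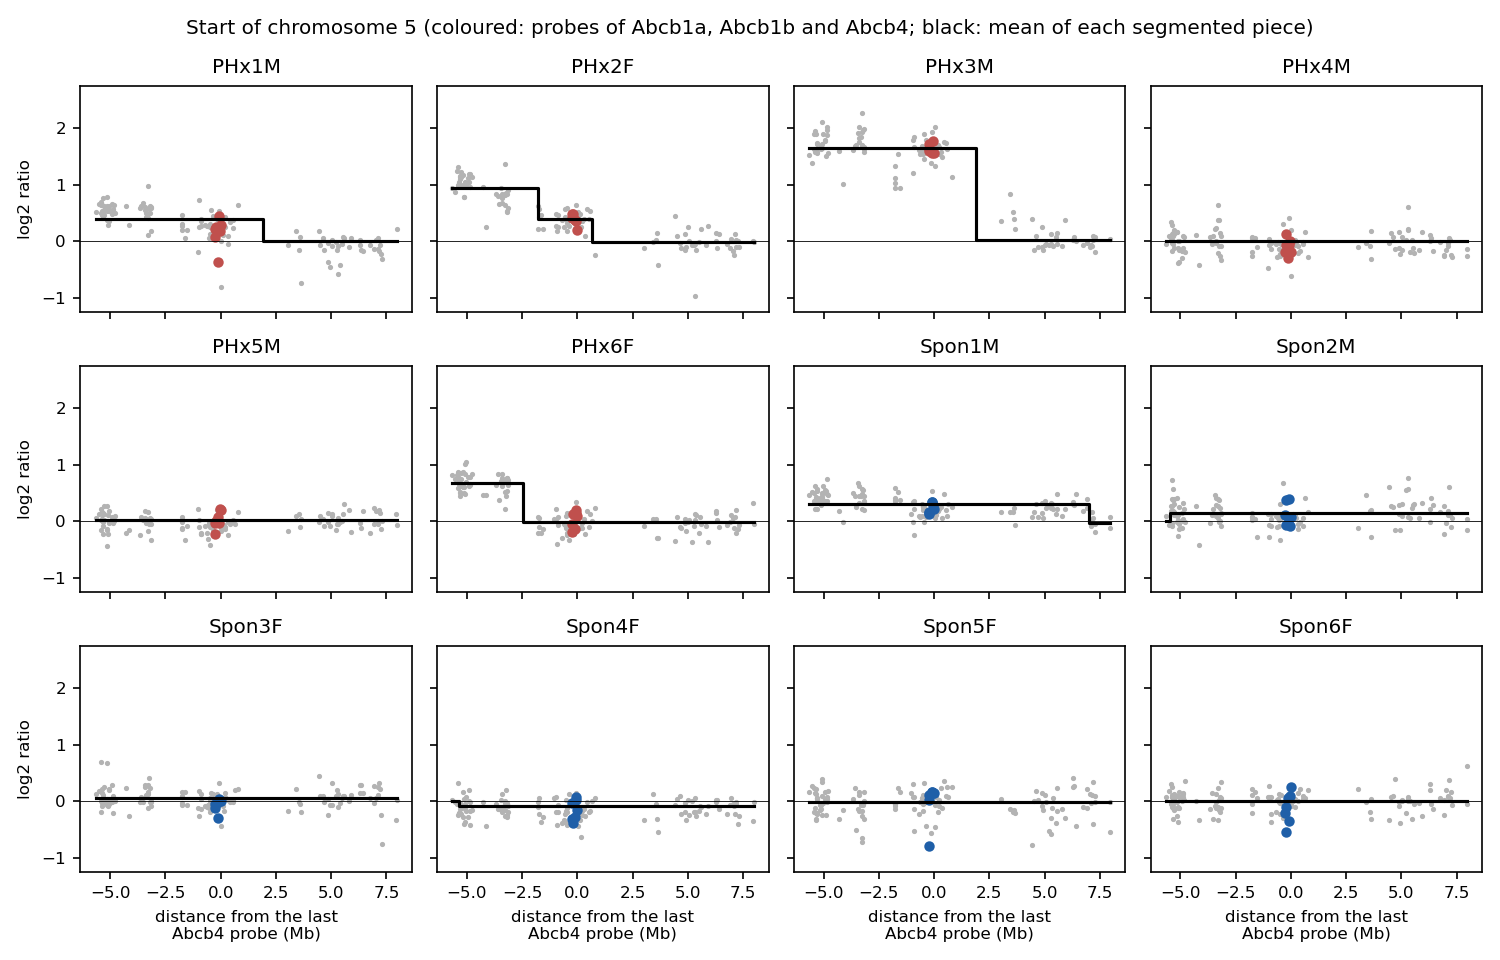
Log2 ratio of single probes (grey dots, y axis) against distance from the last Abcb4 probe in Mb (x axis) in each of the 12 tumors; coloured dots are probes of Abcb1a, Abcb1b and Abcb4 (red post-PHx, blue spontaneous), and the black line is the mean of each segmented piece. The line over the cluster is at 1.65 in PHx3M, 0.40 in PHx1M, 0.38 in PHx2F and 0.31 in Spon1M, and PHx6F drops to -0.01 ahead of it.

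The start of the chromosome and the surroundings of the cluster were then set side by side as a description, with no test, since the bounds came from the calls. The first block ran from the first probe to the end of the PHx6F region, and the second took all probes from 0.5 Mb before to 0.5 Mb behind the cluster (26 to 28 probes per array). The first block averaged 0.54 in PHx1M and the cluster window 0.20 ± 0.27 (SD over probes). In PHx2F the means were 0.95 and 0.39 ± 0.13. In PHx3M they were 1.74 and 1.64 ± 0.16, close to level. In PHx6F they were 0.67 and -0.05 ± 0.17. Spon1M showed 0.42 and 0.20 ± 0.13, and in the other 7 tumors the window differed from the first block by -0.12 to 0.02. The cluster window was thus lower than the first block by the most in PHx6F and PHx2F, where the pieces broke ahead of the cluster. In PHx1M and Spon1M it was also lower, but at the main settings the block and the cluster lay in 1 unbroken piece. Other settings did call an end there. In Spon1M an amplified region ended before the cluster, at position 7405058 with equal probe weights (mean of 0.42) and at 7193231 with normexp correction (0.57). In PHx1M an amplified region ended inside the cluster, at position 8789697 with equal probe weights and at 8707985 with normexp correction. In PHx3M the rest of chromosome 5 averaged 0.01, but its first probes, 3.03 to 4.43 Mb past the last Abcb4 probe, read 0.22 to 0.84.

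**Figure D3:**
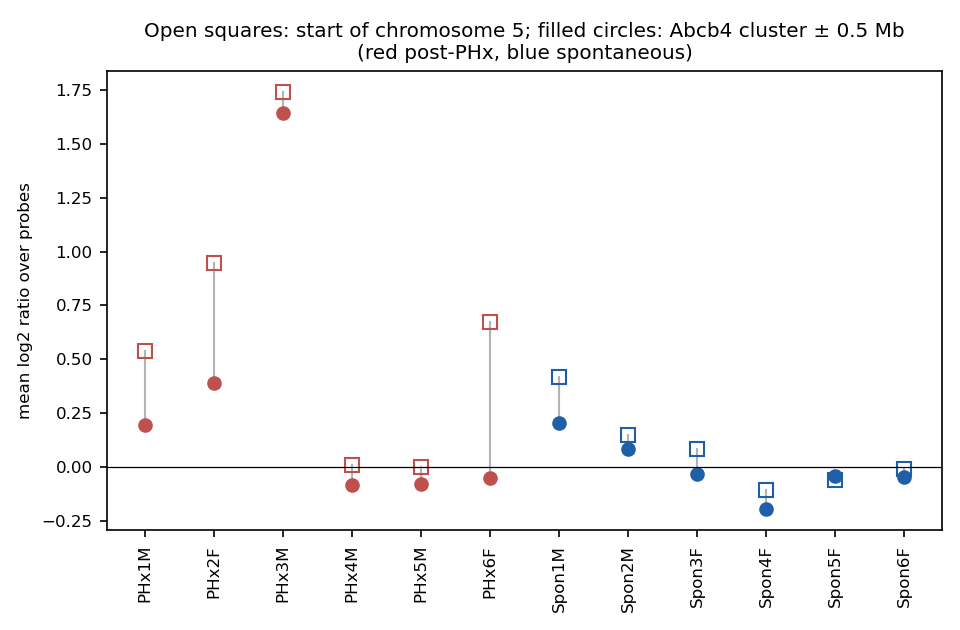
Mean log2 ratio over probes (y axis) at the start of chromosome 5 (open squares) and in the window of the Abcb4 cluster with 0.5 Mb on each side (filled circles) for each of the 12 tumors (x axis), red post-PHx and blue spontaneous. The pair lies at 1.74 and 1.64 in PHx3M, but at 0.95 and 0.39 in PHx2F and at 0.67 and -0.05 in PHx6F.

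The neighbours of the cluster shared its copy number. Within 0.5 Mb, 11 other named genes had probes, among them Adam22 (a catalytically inactive metalloprotease family member), Dbf4 (activator of the replication kinase Cdc7), Slc25a40 (a mitochondrial carrier), Crot (a peroxisomal carnitine acyltransferase) and Dmtf1 (a Myb-like transcription factor). In PHx3M these 11 genes ranged from 1.20 to 1.85 with a median of 1.61, and the 3 transporters lay inside that range. The 1.20 was AK143547, whose 9 probes reached back to position 7184274, outside the window. The other neighbours ranged from 1.58 to 1.85, and Abcb1b at 1.56 lay just below them. Crot, next to Abcb4, read 1.68, Slc25a40 1.61 and Dmtf1 1.61. In PHx2F the range was 0.25 to 0.51 with a median of 0.37. In PHx5M the 11 genes lay at -0.15 to -0.0016, whereas Abcb4 read 0.21, above each of their single probes within 0.5 Mb of the cluster. A probe of AK143547 outside that window read 0.22. In PHx6F, Spon5F and Spon6F, also of slide 2, Abcb4 exceeded the mean of the neighbours' probes by 0.20 in each, and in Spon4F of slide 3 by 0.17. Over all tumors the Abcb4 value minus that mean was -0.12 to 0.32 with a median of 0.04, and it was above 0 in 9 of 12. A shift of the Abcb4 probes on slide 2 was not tested.

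The surroundings of Abcb11 were flat in most tumors. The 12 named neighbours included Lass6 (a ceramide synthase), Spc25 (a kinetochore subunit), G6pc2 (a glucose-6-phosphatase family member of pancreatic islets), Dhrs9 (a dehydrogenase), Lrp2 (the endocytic receptor megalin) and Bbs5 (a protein of the primary cilium). In Spon5F their values ran from -0.08 to 0.48 with a median of 0.25, with Nostrin at 0.42, Bbs5 at 0.34 and Ppig at 0.38. Abcb11 at 0.50 lay above all of these gene means, but a single Nostrin probe read 0.59, above both Abcb11 probes. The piece that held Abcb11 in Spon5F, chr2:34682752-181797594, averaged 0.23 over 2811 probes, which is most of the chromosome. In PHx5M the neighbours ran from -0.45 to -0.06 with a median of -0.25, and the piece averaged -0.17 over 51.2 Mb. Abcb11 itself read 0.01 there. Abcb11 was higher than the mean of its neighbours' probes in 9 of 12 tumors, by a median of 0.19 over all 12. Since the dyes were not swapped, a dye effect of these 2 probes cannot be told apart from a tumor effect.

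**Figure D4:**
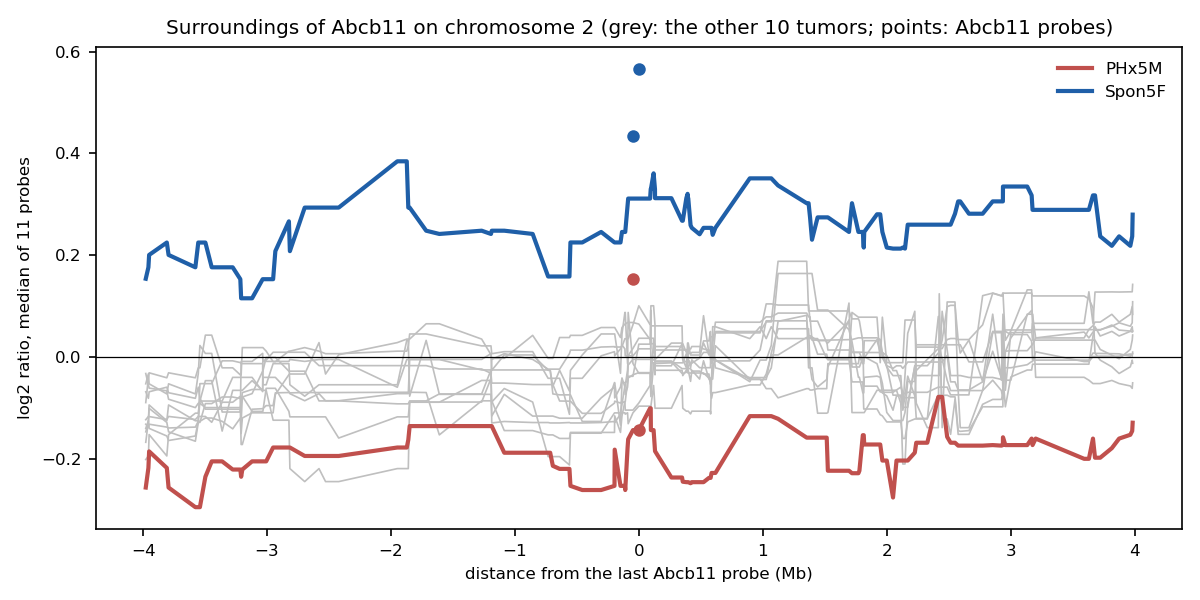
Running median of the log2 ratio over 11 probes (y axis) against distance from the last Abcb11 probe in Mb (x axis); blue is Spon5F, red PHx5M, grey the other 10 tumors, and points are the Abcb11 probes of the coloured tumors. Spon5F runs above the other tumors and its Abcb11 probes at 0.43 and 0.57 lie above its own line, whereas PHx5M runs below 0.

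The question whether hepatectomy went with another copy number of the transporters was put to the 6 post-PHx and 6 spontaneous tumors. For Abcb4 the group means were 0.40 ± 0.63 (SD, n = 6) and 0.09 ± 0.12 (n = 6), a difference of 0.31 ± 0.23 (SE) with an adjusted p of 0.987 by limma and an exact permutation p of 0.238 (two-sided). Abcb1a averaged 0.35 ± 0.67 and -0.09 ± 0.19, with an exact permutation p of 0.0887. For Abcb1b the means were 0.31 ± 0.64 and 0.04 ± 0.21, and the exact permutation p was 0.435. Abcb11 went the other way, with 0.07 ± 0.12 and 0.18 ± 0.22 and an exact permutation p of 0.32. No gene of the 4 was called, as was no gene of all 20627 (0%) in limma after Benjamini-Hochberg adjustment, with 865 at an unadjusted p under 0.05. The methods' t-test gave 847 at that limit and 0 after adjustment. The smallest p that the exact permutation test allows with 6 tumors per group is 0.00216.

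One tumor carried most of these differences. Without PHx3M the difference between the groups fell to 0.06 for Abcb4, 0.19 for Abcb1a and 0.01 for Abcb1b, and remained at -0.12 for Abcb11. Within slide 2, with 2 tumors of each group, it was 0.0056 for Abcb4, 0.19 for Abcb1a, 0.02 for Abcb1b and -0.19 for Abcb11. The smallest p possible there is 0.333 by the exact permutation test. The Abcb1a difference on slide 2 rested on 1 probe. That probe read -0.00083 in PHx5M and 0.13 in PHx6F, against -0.79 in Spon5F and -0.54 in Spon6F. The other Abcb1a probes read -0.22 to -0.02 in PHx5M and PHx6F, and -0.20 to 0.10 in Spon5F and Spon6F. The model with slide as a term gave the same group differences as slide 2 by construction, since only slide 2 held both groups. The 95% interval of the Abcb4 difference in the fit without slide reached 0.50 to either side of 0.31, so neither a gain of about that size nor its absence was shown.

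Over all 12 tumors, the mean ratio was 0.24 ± 0.46 (SD) for Abcb4, 0.13 ± 0.52 for Abcb1a, 0.18 ± 0.47 for Abcb1b and 0.13 ± 0.18 for Abcb11. None of the 4 was called against 0 by limma (adjusted p of 0.176, 0.512, 0.357 and 0.105), whereas 14.8% of all genes were. Taken alone, the values of Abcb4 gave an exact sign-flip permutation p of 0.00977 and those of Abcb11 one of 0.0327, and each was above 0 in 9 of 12 tumors. The corresponding p was 0.534 for Abcb1a and 0.212 for Abcb1b. With no dye swap, these tests cannot tell a dye effect of the probes apart from a tumor effect. Without PHx3M the means were 0.12 for Abcb4, 0.003 for Abcb1a and 0.05 for Abcb1b. With normexp background correction the Abcb4 mean rose to 0.39 and passed the limma threshold (adjusted p of 0.0333), but 40.9% of all genes were then called. Without Spon2M the Abcb11 mean of 0.16 passed it (adjusted p of 0.02), beside 15.3% of all genes.

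The cluster and Abcb11 were compared within each tumor. The mean of the 3 chromosome 5 genes minus Abcb11 was highest in PHx3M, at 1.52, and ranged from -0.47 to 0.43 in the other 11 tumors. Its mean was 0.06 ± 0.53, within the spread between tumors (exact sign-flip permutation test against 0, p = 0.813), and it turned to -0.07 without PHx3M. The group means were 0.28 ± 0.64 and -0.17 ± 0.28 (exact permutation test, p = 0.117).

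The separate channels showed on which side the PHx3M value arose. Each channel's signal is given as log2 minus the median of the autosomal probes of that channel and array. The red (tumor) signal of Abcb4 was 2.33 in PHx3M and 0.44 to 0.87 in the other 11 tumors. The green (non-tumor) signal was 0.69 in PHx3M and 0.27 to 0.69 in the others, and thus stayed at the upper end of their range. Compared with the median of the other 11, PHx3M was 1.68 higher in red and 0.17 higher in green. Abcb1a gave 1.66 in red and -0.02 in green by the same measure. For Abcb1b only the probe measured in all tumors was used, and PHx3M was 2.41 higher in red and 0.83 higher in green. The green signal of that probe ran from -2.84 to -0.87 over the arrays, a wider range than that of green Abcb4. The 4 arrays of slide 2 were the lowest, at -2.84 to -2.20, so part of that range went with the slide, and its part in the PHx3M value was not tested.

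For Abcb11 the red signal of Spon5F, at 0.23, was above the -0.67 to -0.09 of the other tumors, and its green signal of -0.28 was within theirs. Between the groups, the green signal of Abcb4 was 0.54 ± 0.16 and 0.53 ± 0.07 (exact permutation test, p = 0.853) and the red signal 0.94 ± 0.70 and 0.63 ± 0.11 (p = 0.353). None of the 4 genes was called in either channel by limma, as was none of all genes (0% in green, 0% in red). An unadjusted p under 0.05 was reached by 3886 genes in green and 3371 in red. With slide as a term in the model these numbers were 237 and 245. The non-tumor livers of both groups thus showed no called difference at the knockout locus.

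**Figure D5:**
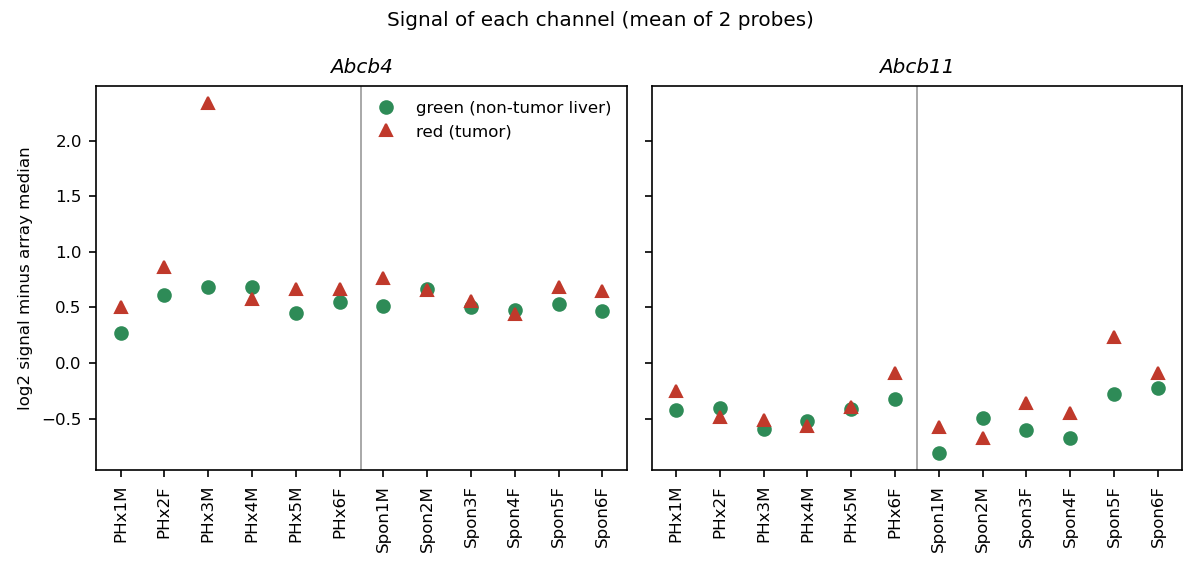
Log2 signal minus the array median (y axis) of Abcb4 and Abcb11, mean of 2 probes, in the green channel (circles, non-tumor liver) and the red channel (triangles, tumor) of each array (x axis); the vertical line parts post-PHx from spontaneous tumors. The red Abcb4 signal of PHx3M is at 2.33 above a green one of 0.69, and the red Abcb11 signal of Spon5F is at 0.23 above a green one of -0.28.

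Genes with a copy number pattern most like that of Abcb4 over the 12 tumors were sought among genes with at least 2 probes. Of 755 such genes on chromosome 5, the closest were its neighbours Dbf4 (Pearson r = 0.98), 9330182L06Rik (0.98) and Adam22 (0.96). On other chromosomes the closest of 10510 were Adck4 on chromosome 7 (0.93), Snx16 on chromosome 3 (0.92) and Pkhd1 on chromosome 1 (0.92), the gene of fibrocystin. They read 1.15, 0.62 and 0.49 in PHx3M, and at most 0.30, 0.0043 and 0.02 in any other tumor, so the likeness was set by PHx3M. Among the transporters themselves r was 0.93 between Abcb4 and Abcb1a over 12 tumors and 0.42 without PHx3M. It was 0.95 and 0.63 between Abcb4 and Abcb1b, and 0.02 and 0.18 between Abcb4 and Abcb11. For Abcb11 the closest genes were AK122515 (0.90), Pla2g4e (0.89) and Strc (0.89) on chromosome 2, and Calm2 on chromosome 17 (0.93), 9530020G05Rik on chromosome 6 (0.93) and Ccnf on chromosome 17 (0.90) elsewhere. All 6 were highest in Spon5F. These r values are across tumors whose points share the array and its noise, and are given as a description.

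The wider transporter family and the bile pathway were taken as lists. From the Abcb family 10 genes were analysed, and from the list of bile formation 38. Between the groups 0 of 10 and 0 of 38 were called, with medians of 0.10 and 0.02 against 0.01 over all genes. The 3 family members with the farthest value in any tumor were the chromosome 5 genes in PHx3M, and the same 3 led the bile list. Of the family, Tap1 and Tap2 (peptide transporters of antigen presentation), Abcb6, Abcb9 and Abcb10 were in no called region. Abcb8, a mitochondrial transporter farther along chromosome 5, was chosen after its values were seen. It read -1.41 in Spon3F and -0.78 in Spon1M, in a deleted region in each, and 1.19 in Spon2M, in no called region. In the 6 post-PHx tumors it read -0.20 to 0.20. Spon4F at 0.02, Spon5F at 0.17 and Spon6F at 0.17 lay inside that post-PHx range. The far values differed in sign and all came from slide 3.

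Of the bile list, 8 genes lay in an amplified region of at least 1 tumor, 3 of them the chromosome 5 transporters, and 4 in a deleted one, beside 15.4% and 11.2% of all 20627 genes. Slc10a2, the ileal bile salt transporter, was chosen after its values were seen. It lay in an amplified region in PHx2F (0.35), PHx3M (0.97) and PHx4M (0.78), and read 0.42 in PHx1M. In PHx5M and PHx6F it read -0.22 and -0.18, inside the range of the spontaneous tumors (-0.25 to 0.01), so the groups overlapped. Its group difference of 0.50 ± 0.18 (SE) was not called (adjusted p of 0.987, limma). Slc22a7, an organic anion transporter with 1 probe, was also chosen afterwards, and lay in an amplified region in PHx6F (0.91) and Spon6F (1.04). Slc10a1, the main bile salt uptake transporter of the hepatocyte and likewise chosen afterwards, read -0.63 in a deleted region of Spon5F. Against the matched liver, 2 of 38 list genes were called by limma, both higher in tumor, again beside the 14.8% of all genes. Cyp7b1, an oxysterol hydroxylase, averaged 0.14 ± 0.04 (SE, adjusted p of 0.0246) and Cyp8b1, the sterol 12-alpha-hydroxylase of cholic acid synthesis, 0.28 ± 0.07 (adjusted p of 0.0134). Neither lay in a called region of any tumor, and Cyp8b1 had 1 probe. That probe read 0.21 to 0.65 on slides 1 and 3, and -0.12 to 0.25 on slide 2. As the dyes were not swapped, a dye effect of the probes of both genes cannot be told apart from a tumor effect. With normexp correction Cyp7b1 turned to -0.11 (adjusted p of 0.024, limma), and its call was lost with the median over probes (0.0684), with the replicate number as a block (0.0566) and without PHx1M, PHx3M, PHx5M or Spon1M (0.0504 to 0.057), whereas Cyp8b1 stayed called in all of these. None of the 10 Abcb family genes was called in that comparison.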

How the data were processed

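Genomic DNA of 12 tumors and their matched livers was compared on Agilent mouse CGH arrays. Per the labels and the file headers, the authors deposited the scanner output of Feature Extraction 10.5.1.1, on build mm8. The deposited intensity of each channel is background-subtracted and dye-normalized, and the deposited log10 ratio is red over green with its error. The deposited error of the log10 ratio served as weight in the region calls.

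Log10 ratios were converted to log2 ratios. Outlier-flagged spots (108 to 1218 per array) and controls were left out, spots of a probe averaged, and arrays centred on the autosomal median, with no other normalization. Probes of a gene were averaged. The test was limma 3.58.1 (R 4.3.3; lmFit, eBayes, Benjamini-Hochberg over 20627 genes) and, per gene, exact permutation tests (Python 3.11.15, numpy 2.4.6, scipy 1.17.1, pandas 2.3.3, numba 0.67.0, matplotlib 3.10.9). Both the limma step and the region caller were tested on simulated data. Arrays carry no counts, and the number of tumors limits the precision. Replicate numbers mark different mice.

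The members and lists were chosen with earlier results of these data known. The genes named were the 4 members, all genes within 0.5 Mb of their probes, the genes most correlated with Abcb4 and Abcb11, and of the 2 lists the genes called between the groups and the 3 farthest from 0 in any tumor. Other list genes named were chosen after their values were seen. Slc51a and Slc51b were matched to older names, and 1 item of the lists is not reported here.

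Alternatives were centring on the mode or none, normexp background correction (offset of 50), outlier spots kept, only probes well above background, medians over probes, slide, sex or replicate number in the model, the methods' t-test, other region settings, other signal scalings, and each tumor left out. A mean over all probes within 0.5 Mb, and slide, sex or replicate number in the test against the liver, were added after seeing the data.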

Additional observations from a re-analysis of the deposited data

Results flagged for a closer look

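Of 26 sets of 6 values (each of the 4 genes' ratios and signals, and the cluster minus Abcb11, in each group), 7 held 1 tumor far from the others by Dixon's criterion, which by chance marks about 1 set in 20. In 6 of them PHx3M was the high post-PHx value, and these are not independent since 3 of the genes share a region. The log2 ratios were 1.67 for Abcb4, 1.65 for Abcb1a and 1.56 for Abcb1b, and the cluster minus Abcb11 stood at 1.52. The red signals were 2.33 for Abcb4 and 0.67 for Abcb1b, the latter from 1 probe. The remaining one was the green signal of Abcb4 in Spon2M, 0.66, which was the highest among the spontaneous tumors but below the 0.69 of PHx3M and PHx4M.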

How the results depend on the processing

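With 6 tumors per group and 2 or 3 probes per gene, a gain in 1 tumor decides a mean. A small change can lie within the spread of 2 probes, such as the -0.37 and 0.44 of Abcb1b in PHx1M. No alternative run on the ratios called any of the 4 genes, or any other gene, between the groups. The replicate number as a block left the Abcb4 difference at 0.31 (adjusted p of 0.967, limma) and changed no call between the groups. Deviations of same-numbered tumors correlated at -0.03 to 0.44 and 1 of 6 post-PHx tumors correlated best with its own number, so the numbers were not treated as pairs. The mean over all probes within 0.5 Mb, chosen after seeing the data, gave differences of 0.34 at Abcb4 and -0.06 at Abcb11.

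Under normexp correction, 8430 genes differed between tumor and non-tumor liver instead of 3047, the mean of Abcb4 became 0.39 and that of Abcb1b -0.015; the cause was not tested. Such genes numbered 3735 with slide, 3211 with sex and 2286 with the replicate number as a block in the model, all 3 chosen after seeing the data, and none of the 4 transporters was among them. Leaving out each tumor in turn gave 2113 to 3234 such genes, means of 0.12 to 0.29 for Abcb4, 0.003 to 0.18 for Abcb1a, 0.050 to 0.22 for Abcb1b and 0.093 to 0.16 for Abcb11 (lowest without PHx3M for the first 3), 0 or 1 tumors with the cluster amplified, and a cluster minus Abcb11 of -0.074 to 0.11. The cluster was amplified in 2 tumors without centring, in 2 with outlier spots kept and in 4 with the limit of 0.25, as those settings raise or loosen the values of pieces next to the limit. These counts follow Abcb4. With equal probe weights an amplified region of PHx1M, chr5:3285647-8789697 at a mean of 0.45, held Abcb1a but neither Abcb1b nor Abcb4.

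The signal differences between the groups changed sign under at least 1 alternative, except the red one of Abcb1a (0.13 to 0.55 without each tumor in turn). With centring on the 75th percentile the green difference of Abcb4 was -0.0035. With slide as a term the green differences were -0.00089 for Abcb4, 0.023 for Abcb1a, 0.25 for Abcb1b and -0.12 for Abcb11, and the red one of Abcb4 was -0.0018. Without each tumor in turn, the green difference was -0.013 to 0.070 for Abcb4 and -0.077 to 0.044 for Abcb1a, and the red one -0.22 to 0.25 for Abcb1b and -0.14 to 0.045 for Abcb11. The Abcb1b differences given here came from the mean of its 2 probes, 1 of which was dropped in PHx2F and PHx3M. Its signals given earlier used only the other probe. Genes called between the groups in green numbered 203 without PHx5M and 845 without PHx6F, and in red 2 without PHx5M, against 0 with all tumors. The 4 genes were not among them. PHx5M and PHx6F were the only post-PHx tumors on slide 2, so without either the group went more closely with the slide. The part of the slide in these counts was not tested.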
